A study of Mus musculus with 6 samples.

Results

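The genes described are those of the proteasome, the protease that degrades ubiquitin-tagged proteins, in gastrocnemius muscle of mice bearing C26 tumors and of control mice. Members were chosen by a rule on symbols, as every listed gene named Psma to Psmg with a number, or Pomp. Of the 13363 listed genes, 49 were members. They comprised 7 α and 7 constitutive β subunits of the 20S core, 2 immune β subunits, 6 ATPase and 11 non-ATPase subunits of the 19S particle, 6 activator or inhibitor genes, 8 assembly factors and 2 genes, Psmc3ip and Psme3ip1, that match by symbol and are not proteasome subunits. RefSeq holds 52 protein-coding genes of these names, of which Psma8, Psmb9 and Psmb11 were not analysed here.

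Muscles came from male BALB/c mice (strain label Balb/c) that were 6 weeks old at purchase and were acclimated for 1 week. The C26 group had received 500000 C26 cells, a line of mouse colon adenocarcinoma, under the skin of the right flank, and the control group bore no tumor. RNA of 3 gastrocnemius muscles per group was sequenced, and levels are given as FPKM, the share of a library's mapped fragments that fall on a gene, scaled by transcript length. Replicate numbers name samples, and the main test does not pair them. The labels do not say whether a muscle is 1 mouse or a pool, so the p-values measure the spread between these samples.

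The 26S proteasome consists of a barrel, the 20S core, capped by the 19S regulatory particle. The core is built of rings of α subunits, which form the gate, around rings of β subunits, of which Psmb5, Psmb6 and Psmb7 carry the chymotrypsin-like, caspase-like and trypsin-like active sites. In cells exposed to interferon γ these are replaced by Psmb8, Psmb9 and Psmb10, giving the immunoproteasome, and the core can be capped by PA28 (Psme1 and Psme2) in place of the 19S particle. The 19S base unfolds substrates with its ATPases, Psmc1 to Psmc6, while other subunits bind ubiquitin chains, and the lid removes them through Psmd14. In wasting skeletal muscle the ubiquitin-proteasome system is known as a main route of breakdown of myofibrillar proteins.

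FPKM summed to between 531061 and 585169 over the listed genes in the C26 muscles and to between 626992 and 688300 in the control muscles. For comparison between groups the values were therefore rescaled to a common sum (TPM) and corrected by TMM factors, so that changes between groups (log2FC, C26 minus control, with its standard error after ±) are differences on the log2(scaled TPM + 1) scale. This raises C26 relative to control values by 1.16-fold against FPKM as deposited. Read counts are not used here and the depth behind each value is unknown. All 15 skeletal muscle markers were listed, and their summed level was 128100 to 215700 scaled TPM in C26 and 254700 to 274600 in the controls. Differences between groups were tested with limma and Benjamini-Hochberg adjustment over all 13363 genes, and were called at an adjusted p under 0.05.

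Proteasome genes split largely by role in the C26 muscles. Of the 20S core and the 19S particle, all constitutive subunits but Psmb6 and Psmd14 were called higher. The immune β subunits analysed here and the PA28 genes Psme1, Psme2 and Psme2b were called lower. Psme3 (PA28γ) was called higher, and no assembly factor was called. Of the 49 members, 31 were called higher in C26, 5 lower and 13 did not pass the test, against 19.4% of all listed genes called higher and 14.5% called lower. With FPKM as deposited, 28 members were called higher and 6 lower, and of all genes 1678 and 2504, against 2589 and 1932 after scaling. The count called lower was 2 without C26 replicate 1 and 1 without Control replicate 1, and of the 2 immune β subunits 1 and 0 were then called. In these fits 669 and 726 of all listed genes were called lower, against 1932 in the main fit. The median log2FC was 0.89 over the members and -0.05 over all listed genes. Among the 31 constitutive subunits of the 26S proteasome, 29 were called higher and 0 lower, with a median log2FC of 1.17 (2.25-fold). For 30 of these 31 the lowest C26 muscle lay above the highest control muscle in scaled TPM, which held for 27.0% of all listed genes, while 53.5% did not overlap in either direction. At a fold change above 4, 3 members were called higher (Psmd11, Psmd4 and Psmd2) and 2 lower (Psmb8 and Psmb10), against 1.76% and 1.73% of all genes. Psmd2 lay just inside that limit at 4.002-fold and Psma7 just outside at 3.81-fold. Psmd4 and Psmd2 also fell below 4-fold with FPKM as deposited (log2FC 1.81 and 1.78) and under quantile normalization (1.64 and 1.62), where Psmd11 stayed above it. Without 1 muscle the log2FC ranged from 1.90 to 2.31 for Psmd4, from 1.86 to 2.34 for Psmd2, from 1.72 to 2.30 for Psma7 and from -2.41 to -1.78 for Psmb10, so that these genes lie on either side of the limit. Around the p threshold, Psme3 lay inside (adjusted p = 0.0376, limma) and Psmd14 outside (adjusted p = 0.0578, limma).

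**Figure D1:**
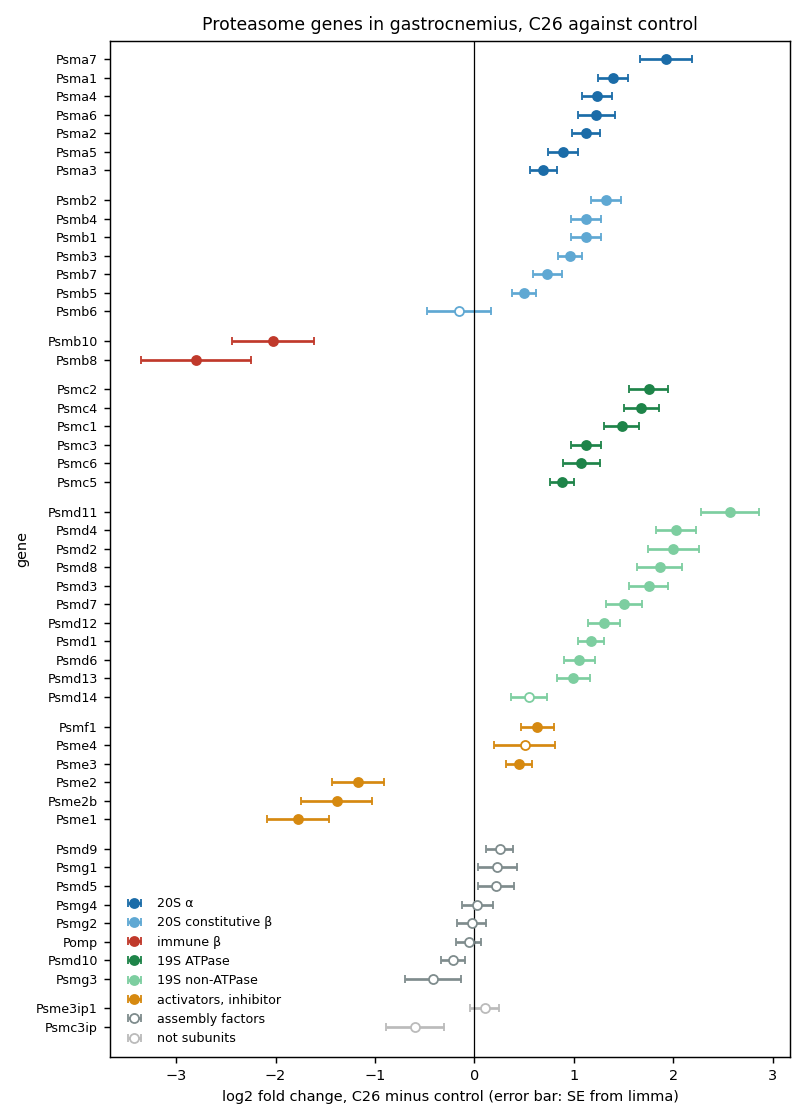
The log2FC (log2(scaled TPM + 1) scale) with its standard error for the 49 members, grouped by role, 3 muscles per group. Filled points have an adjusted p under 0.05 (limma) and open points do not. Of the 20S and 19S subunits 29 of 31 lie above 0 with filled points, while Psmb8 and Psmb10 lie at -2.80 and -2.03.

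Promoter sequences from RefSeq (GRCm38.p6) were found for 42 of the 49 members and for 25 of the 31 subunits of the 26S proteasome. The 120 bases before the annotated start are shown, 5′ to 3′ on the strand of the gene, for Psmd11, Psmd4 and Psma7, 3 of the subunits with the largest rises, and for Psmb8 and Psme1, the immune β subunit and the PA28 gene that fell most. Capitals mark matches to the motifs named after the sequences.
Psmd11: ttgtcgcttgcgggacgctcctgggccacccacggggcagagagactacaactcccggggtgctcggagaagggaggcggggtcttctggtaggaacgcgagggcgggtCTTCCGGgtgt
Psmd4: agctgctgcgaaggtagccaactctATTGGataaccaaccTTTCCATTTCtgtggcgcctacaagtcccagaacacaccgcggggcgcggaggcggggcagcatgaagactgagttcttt
Psma7: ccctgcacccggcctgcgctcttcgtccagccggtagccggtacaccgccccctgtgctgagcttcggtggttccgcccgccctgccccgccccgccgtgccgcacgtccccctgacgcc
Psmb8: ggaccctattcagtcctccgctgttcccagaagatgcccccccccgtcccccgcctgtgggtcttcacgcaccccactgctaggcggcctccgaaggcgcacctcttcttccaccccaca
Psme1: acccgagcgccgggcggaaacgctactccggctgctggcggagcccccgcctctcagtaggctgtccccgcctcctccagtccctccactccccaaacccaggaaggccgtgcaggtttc
They lie at chr11:80428495-80428614 (plus strand), chr3:95042615-95042734 (minus), chr2:180042465-180042584 (minus), chr17:34198075-34198194 (plus) and chr14:55578374-55578493 (plus), in the same order, and each ends at the base next to the annotated gene.

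4 motifs were searched on both strands in windows of 250 bases before to 50 bases after the start, and a gene with several windows was counted once if any of them held the motif. The core of the antioxidant response element bound by the Nfe2l1 and Nfe2l2 factors, TGACNNNGC, was found in 4 of the 25 subunits of the 26S proteasome (16.0%), in 16.8% of listed genes with a window and in 12.4% of all 32851 windows counted singly. The ETS core CCGGAAG, chosen after some of the sequences had been seen, was found in 10 of 25 (40.0%), in 19.03% of listed genes and in 8.86% of all windows. It stands in capitals, as its reverse complement, in Psmd11, was outside the bases shown in Psmd4, and it was also in 3 of 7 assembly factors and in 0 of 5 members called lower. A CCAAT box was found in 10 of 25 subunits (40.0%) against 42.8% of listed genes and 37.4% of all windows. The interferon response element (GAAA, any 2 bases, GAAA) was found in 2 of 25 (8%) and in 1 of 5 members called lower, Psme1, outside the bases shown, against 2 of 7 assembly factors, 3.61% of listed genes and 3.44% of all windows. In Psmd4 the capitals mark this element and a CCAAT box, each as its reverse complement. The motifs do not overlap in the bases shown, and a match is a run of letters and not a bound site.

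All 7 α subunits of the 20S core were called higher, with log2FC values from 0.69 to 1.93 and a median of 1.23. The largest was that of Psma7, whose FPKM was 581, 733 and 331 in C26 muscles 1 to 3 and 163, 146 and 166 in the controls 1 to 3. The groups did not overlap, and the difference was 1.93 ± 0.26 (SE) on the log2 scale (adjusted p = 0.00516, limma). C26 muscle 3 was the lowest of its group for Psma7. Psma1 followed, with FPKM of 150, 126 and 126 against 58.9, 59.8 and 57.3 and a log2FC of 1.40 ± 0.15. Psma4 stood at 243, 257 and 183 FPKM in the C26 muscles and at 110, 99.9 and 124 in the controls, 2.35-fold higher. Psma6 stood at 372, 350 and 250 FPKM in the C26 muscles and at 165, 165 and 145 in the controls, 2.34-fold higher. For both genes every C26 muscle exceeded every control muscle by more than the range of the controls. The smallest change in the ring was that of Psma3, at 189, 185 and 162 FPKM against 137, 123 and 124, a log2FC of 0.69 ± 0.13 (adjusted p = 0.0116, limma). Psma2 and Psma5 were 2.18-fold and 1.86-fold higher. The call of Psma3 was lost under quantile normalization and without C26 replicate 1, and that of Psma5 under quantile normalization.

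Of the 7 constitutive β subunits 6 were called higher, with a median log2FC of 0.96 over the 7. The non-catalytic subunits Psmb2, Psmb4, Psmb1 and Psmb3 changed most. Psmb2 stood at 226, 200 and 164 FPKM in the C26 muscles and at 87.3, 87.6 and 95.5 in the controls, with a log2FC of 1.32 ± 0.15 (adjusted p = 0.00354, limma). Psmb4 stood at 431, 354 and 321 FPKM against 192, 188 and 204, 2.18-fold higher. Psmb1 stood at 280, 292 and 218 FPKM against 130, 129 and 162, likewise 2.18-fold higher. Psmb3 was 1.95-fold higher, at 333, 337 and 292 FPKM against 189, 179 and 206. For each of these 4 genes the groups were separated in FPKM as well as in scaled TPM.

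The 3 constitutive subunits with an active site had smaller log2FC values than these 4, a difference between genes that was not tested. Psmb5, the chymotrypsin-like subunit, stood at 175, 174 and 162 FPKM in the C26 muscles and at 143, 134 and 142 in the controls, with a log2FC of 0.50 ± 0.12 (adjusted p = 0.0235, limma). Psmb7, the trypsin-like subunit, stood at 543, 488 and 442 FPKM against 336, 354 and 335, with a log2FC of 0.73 ± 0.15 (adjusted p = 0.0136, limma). In both genes the groups did not overlap. Psmb6, the caspase-like subunit, stood at 11.1, 13.9 and 23.0 FPKM in the C26 muscles and at 26.5, 16.1 and 18.1 in the controls. These ranges overlapped, and the log2FC of -0.15 ± 0.32 did not pass the test (adjusted p = 0.730, limma). Psmb6 was also the lowest of the 31 subunits in both groups, at 20.3 FPKM in the controls where the next lowest, Psmd11, was at 39.5. RefSeq lists 6 pseudogenes by the same naming, of Psma5, Psmb5, Psmb6 and Psmb7, and how reads shared with such copies were assigned was not tested. The call of Psmb5 was lost in 4 of 7 alternative settings, FPKM as deposited among them, and without C26 replicate 1, C26 replicate 2 or Control replicate 1. That of Psmb7 was lost under quantile normalization and without C26 replicate 1 or Control replicate 1.

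Of the 17 members of the 19S particle 16 were called higher. Their median log2FC was 1.48, against 1.12 in the 20S core, and for all 17 the groups did not overlap. The 6 ATPases of the base were all called higher, with a median of 1.30. Psmc2 stood at 326, 318 and 207 FPKM in the C26 muscles and at 95.5, 99.2 and 91.8 in the controls, a log2FC of 1.75 ± 0.20 (adjusted p = 0.00338, limma). Psmc4 stood at 233, 254 and 161 FPKM against 77.2, 75.1 and 77.1, 3.20-fold higher. Psmc1 stood at 299, 280 and 204 FPKM against 109, 110 and 102, 2.79-fold higher. The control muscles varied little in these 3 genes, and C26 muscle 3 was the lowest of its group in each. Psmc3 stood at 301, 321 and 229 FPKM against 147, 147 and 155, 2.18-fold higher. The smallest change was that of Psmc5, at 230, 236 and 204 FPKM against 139, 131 and 152, with a log2FC of 0.88 ± 0.12. Psmc6 was 2.11-fold higher.

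Of the 11 non-ATPase subunits 10 were called higher, with a median log2FC of 1.503. Psmd11, a lid subunit whose fold change was the highest of all 49 members, stood at 220, 299 and 129 FPKM in the C26 muscles and at 41.3, 42.7 and 34.4 in the controls. The log2FC was 2.57 ± 0.30 (5.95-fold, adjusted p = 0.00355, limma). Even C26 muscle 3 lay far above the highest control muscle. Psmd4, a ubiquitin receptor, stood at 523, 585 and 335 FPKM against 131, 130 and 138, with a log2FC of 2.03 ± 0.20 (adjusted p = 0.00255, limma). Psmd2, a scaffold of the base, stood at 409, 439 and 228 FPKM against 98.3, 108 and 92.9, with a log2FC of 2.001 ± 0.26. Psmd8, of the lid, stood at 283, 307 and 174 FPKM against 83.0, 81.3 and 71.7, 3.64-fold higher. These 4 genes shared the order of the C26 muscles, with muscle 2 highest and muscle 3 lowest. Psmd3 and Psmd7, both of the lid, were 3.37-fold and 2.83-fold higher, and Psmd12, Psmd1, Psmd6 and Psmd13 between 1.99-fold and 2.47-fold higher. The deubiquitinase of the lid, Psmd14, stood at 52.6, 48.7 and 62.3 FPKM against 45.1, 43.6 and 40.1. The groups did not overlap, and the log2FC of 0.55 ± 0.18 did not pass the test in the main setting (adjusted p = 0.0578, limma) but did without the TMM factors (adjusted p = 0.0294, limma).

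A further pair of 19S subunits has names outside the rule. Adrm1, a ubiquitin receptor, stood at 385, 440 and 219 FPKM in the C26 muscles and at 125, 128 and 127 in the controls, with a log2FC of 1.61 ± 0.25 (adjusted p = 0.00676, limma). Sem1, a small lid subunit, stood at 159, 172 and 198 FPKM against 283, 254 and 350. This was lower in every C26 muscle, and the log2FC of -0.52 ± 0.17 did not pass the test (adjusted p = 0.0519, limma).

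**Figure D2:**
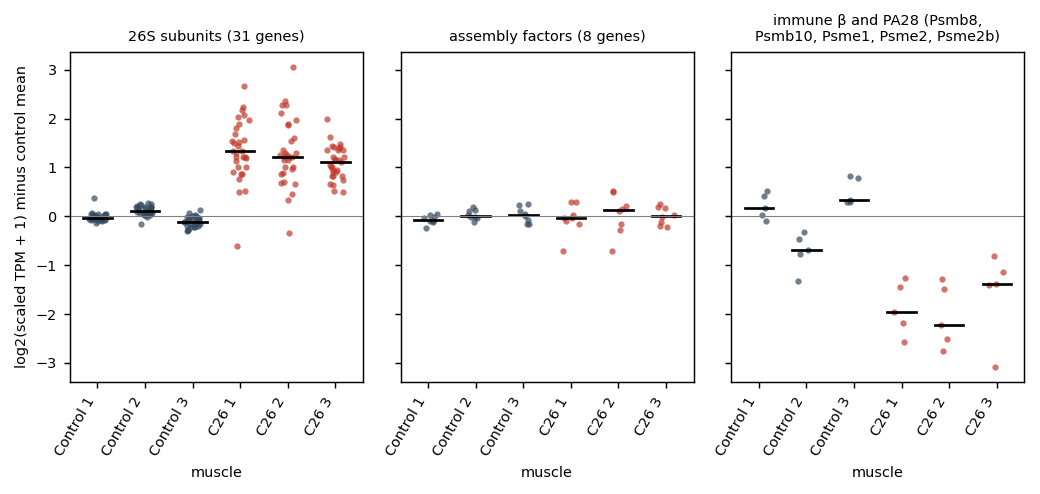
Difference from the control mean, on the log2(scaled TPM + 1) scale, in each of the 6 muscles for the 31 core and 19S subunits, the 8 assembly factors, and the 5 immune β and PA28 genes called lower, with 1 point per gene and black lines at the medians. The medians over the 31 subunits are 1.33, 1.22 and 1.11 in C26 muscles 1 to 3 and between -0.12 and 0.11 in the control muscles.

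The C26 muscles differed among themselves more than the control muscles did. Together the 31 subunits made up 1.51%, 1.503% and 1.01% of the summed scaled TPM in C26 muscles 1 to 3 and 0.525%, 0.537% and 0.498% in the controls 1 to 3. In scaled TPM, C26 muscle 3 was the lowest of its group for 21 of the 31 subunits, comprising 7 of 14 in the core and 14 of 17 in the 19S particle. In FPKM as deposited it was the lowest for 27 of 31, comprising 12 of 14 and 15 of 17. The median coefficient of variation of the FPKM was 16.0% in C26 and 5.99% in the controls, and it was larger in C26 for 30 of the 31 subunits. The summed skeletal muscle markers were highest among the C26 muscles in muscle 3 as well, at 215700 scaled TPM against 159100 and 128100, and the part of this in the lower proteasome levels was not tested.

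Levels of the subunits per transcript length spanned a wide range within each group. In control muscles the mean FPKM ran from 20.3 for Psmb6 and 39.5 for Psmd11 to 342 for Psmb7, with a median of 101.5 over the 31 subunits. In C26 muscles it ran from 16.0 for Psmb6 and 54.5 for Psmd14 to 549 for Psma7, with a median of 216. Between Psmd11 and Psmd14, the lowest 19S subunits in the controls (39.5 ± 4.4 and 42.9 ± 2.6, SD, n = 3), the difference was within their spread. In C26 muscles Psmd11 stood at 216 ± 85 FPKM and Psmd14 at 54.5 ± 7.0. Psma7 and Psmb7, the highest in C26, stood at 549 ± 203 and 491 ± 51 FPKM, also a difference within their spread.

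**Figure D3:**
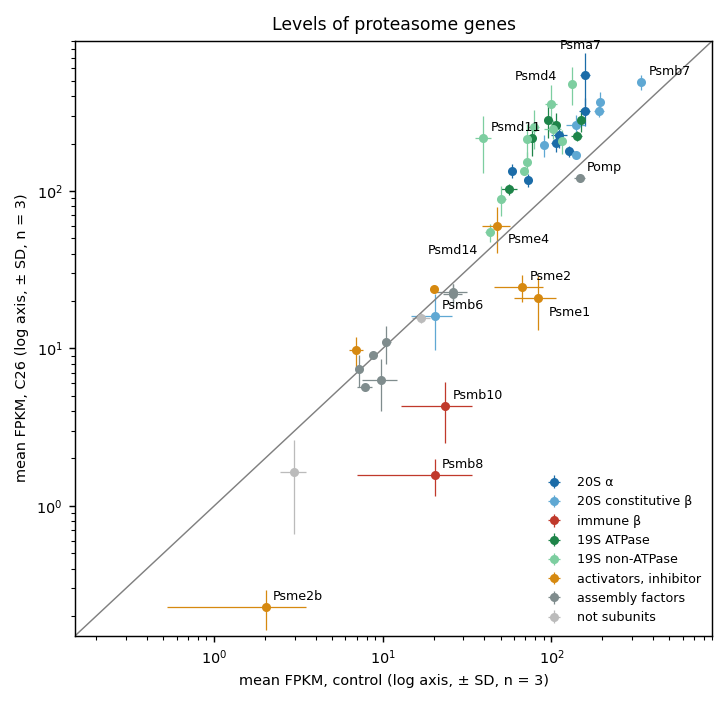
Mean FPKM (± SD, n = 3) of each of the 49 members in the controls (x, log axis) and C26 muscles (y, log axis), coloured by role, with the line of equal FPKM. Lower error bars are clipped at 95% of the mean so that they can be drawn on a log axis. The 20S and 19S subunits lie above the line except Psmb6, and Psmb8, Psmb10, Psme1, Psme2 and Psme2b lie below it.

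Psmb8 and Psmb10, the immune β subunits analysed here, fell, while Psmb9 was not analysed. Psmb8, which takes the place of Psmb5, stood at 1.92, 1.69 and 1.11 FPKM in the C26 muscles and at 24.2, 5.56 and 31.3 in the controls. The groups did not overlap, control muscle 2 was well below the other control muscles, and the log2FC was -2.80 ± 0.55 (6.96-fold lower, adjusted p = 0.0127, limma). Psmb10, which takes the place of Psmb7, stood at 3.69, 2.91 and 6.35 FPKM against 29.8, 11.3 and 29.3, with a log2FC of -2.03 ± 0.41 (adjusted p = 0.0141, limma). Here too control muscle 2 was the lowest control. The call of Psmb8 was lost without Control replicate 1 (log2FC -2.54, adjusted p = 0.0529, limma), and its log2FC was -3.47 without Control replicate 2. Psmb10 was not called without C26 replicate 1 or Control replicate 1 (adjusted p = 0.0581 and 0.0569, limma).

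Each immune subunit was also compared with the one it replaces, as a share of their summed FPKM and as a log2 ratio of scaled TPM with the pseudocount of 1 added to both. Psmb8 made up 1.09%, 0.964% and 0.681% of the summed FPKM of Psmb8 and Psmb5 in C26 muscles 1 to 3. In control muscles 1 to 3 it made up 14.5%, 3.998% and 18.02%. The log2 ratio of Psmb8 to Psmb5 was -6.34 ± 0.26 in C26 and -3.04 ± 1.23 in the controls (SD, n = 3), a difference of -3.30 (p = 0.1, two-sided exact permutation test). Psmb10 made up 0.675%, 0.593% and 1.42% of the summed FPKM of Psmb10 and Psmb7 in C26 muscles, and 8.15%, 3.09% and 8.04% in the controls. Its log2 ratio to Psmb7 was -6.71 ± 0.61 in C26 and -3.95 ± 0.82 in the controls, a difference of -2.76 (p = 0.1, two-sided exact permutation test). In both ratios every C26 muscle lay below every control muscle, and 0.1 is the smallest p that 3 against 3 samples allow. The size of the difference moved with the pseudocount and scaling, from -3.64 with a pseudocount of 0.1 to -2.92 under quantile normalization for Psmb8 and from -2.89 to -2.63 for Psmb10 in the same settings. These are ratios of mRNA in whole muscle and not of assembled proteasomes. In such bulk samples fewer cells of a type and less RNA per cell cannot be told apart.

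**Figure D4:**
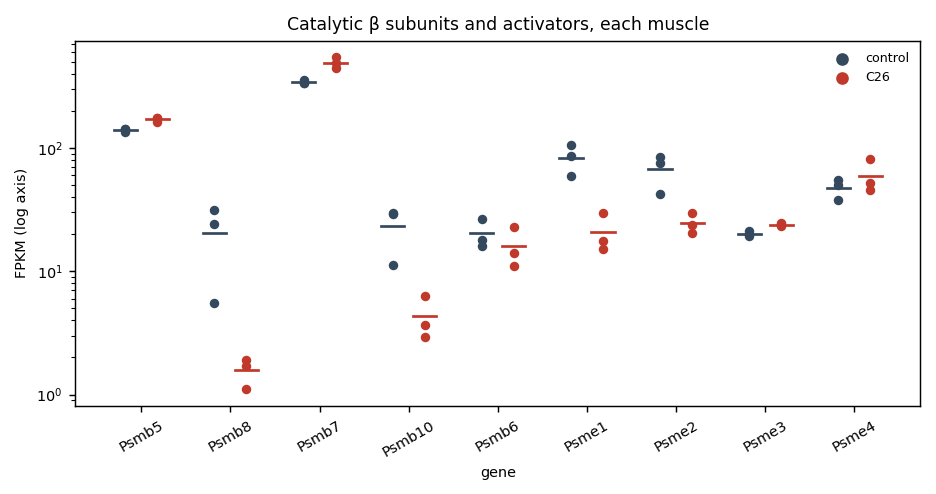
FPKM (log axis) of the catalytic β subunits Psmb5, Psmb6 and Psmb7, the immune subunits Psmb8 and Psmb10, and the activator genes Psme1 to Psme4 (Psme2b is not drawn), with 1 point per muscle and horizontal lines at the group means. Psmb8 lies between 1.11 and 1.92 in C26 and between 5.56 and 31.3 in the controls, while Psmb5 lies between 162 and 175 in C26 and between 134 and 143 in the controls.

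The activators of the 20S core did not move together. Psme1 and Psme2, the α and β subunits of the PA28 cap, fell. Psme1 stood at 17.7, 15.2 and 29.8 FPKM in the C26 muscles and at 85.4, 59.3 and 106 in the controls, with a log2FC of -1.77 ± 0.31 (3.42-fold lower, adjusted p = 0.00948, limma). Psme2 stood at 20.4, 23.6 and 29.7 FPKM against 74.8, 42.7 and 84.0, with a log2FC of -1.17 ± 0.26 (adjusted p = 0.0175, limma). As for the immune β subunits, control muscle 2 was the lowest control in both genes. Psme1 was called in each of the 6 fits without 1 muscle, and Psme2 was not called without C26 replicate 1, C26 replicate 2 or Control replicate 1. Psme2b, a near copy of Psme2 whose reads may be shared with it, was called lower as well, at 0.3, 0.18 and 0.2 FPKM against 1.64, 0.75 and 3.66. Its log2FC was -1.39 ± 0.36, and at these low levels it depended on the pseudocount, reaching -2.42 with a pseudocount of 0.1. The call of Psme2b was lost under quantile normalization and without any 1 of the C26 replicates or Control replicate 1.

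Psme3, the PA28γ cap of nuclear proteasomes, stood at 24.5, 23.1 and 24.1 FPKM in the C26 muscles and at 19.98, 19.19 and 21.3 in the controls. The groups did not overlap, and its log2FC of 0.45 ± 0.13 was called (adjusted p = 0.0376, limma). Psmf1, the inhibitor PI31, stood at 11.3, 10.6 and 7.33 FPKM against 7.42, 6.21 and 7.25, with a log2FC of 0.63 ± 0.17 (adjusted p = 0.0292, limma). C26 muscle 3 lay within the range of the controls in FPKM. The calls of both genes were lost with FPKM as deposited and under quantile normalization, and each without 5 of the 6 muscles in turn. Psme4, the PA200 cap, stood at 51.5, 45.7 and 81.6 FPKM against 49.7, 55.4 and 37.9. The groups overlapped and the log2FC of 0.50 ± 0.31 did not pass the test (adjusted p = 0.243, limma).

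None of the 8 assembly factors was called in either direction, where 33.8% of all listed genes were, and their median log2FC was 0.001 with a range of -0.42 to 0.25. Pomp, the maturation factor of the 20S core, stood at 126, 119 and 119 FPKM in the C26 muscles and at 156, 136 and 149 in the controls. Every C26 muscle was lower in FPKM, the groups overlapped after scaling, and the log2FC of -0.06 ± 0.13 did not pass the test (adjusted p = 0.734, limma), though Pomp was called lower under quantile normalization (-0.48, adjusted p = 0.0394, limma). Of the chaperones of the α ring, Psmg1 to Psmg4, Psmg2 stood at 23.1, 25.1 and 18.2 FPKM against 24.9, 23.4 and 29.95, with a log2FC of -0.03 ± 0.15 that turned positive without the TMM factors. Psmg4 had a log2FC of 0.03 ± 0.16 that turned negative with FPKM as deposited and under quantile normalization. Psmg1 and Psmg3 had log2FC values of 0.23 ± 0.19 and -0.42 ± 0.28, and without C26 replicate 3 they were called, at 0.49 and -0.64. The chaperones of the 19S base, Psmd5, Psmd9 and Psmd10, had log2FC values of 0.22 ± 0.18, 0.25 ± 0.13 and -0.21 ± 0.12, and Psmd10 was called lower with FPKM as deposited (-0.39, adjusted p = 0.0478, limma). Of the genes that are not subunits, Psmc3ip, a recombination factor, ranged over 1.01 to 2.75 FPKM with tumors and 2.44 to 3.49 without, and Psme3ip1 at 14.6 to 16.9 and 15.6 to 19.2. Neither was called.

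Genes that work with the proteasome were taken from lists of symbols. Of 14 listed proteasome-associated factors 12 were called higher and 0 lower, against 19.4% and 14.5% of all listed genes. The median log2FC of the 14 was 1.31. Zfand2a, Zfand5 and Txnl1 changed most, at 2.03 ± 0.17, 1.89 ± 0.25 and 1.80 ± 0.23. Zfand5, a zinc finger protein that binds the 26S proteasome, stood at 381, 281 and 364 FPKM in the C26 muscles and at 115, 121 and 84.1 in the controls. Usp14, a deubiquitinase of the 19S particle, stood at 32.7, 24.7 and 31.7 FPKM against 15.7, 16.4 and 12.99, with a log2FC of 1.16 ± 0.21 (adjusted p = 0.0101, limma). In both genes every C26 muscle exceeded every control muscle.

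Of 12 listed genes of the control of proteasome transcription 9 were called higher and 0 lower, against 19.4% and 14.5% of all listed genes. The median log2FC of the 12 was 1.23. The small Maf proteins Maff and Mafk, partners of the Nfe2l factors at antioxidant response elements, changed most with Bach1, a repressor at the same elements. Maff stood at 64.7, 45.7 and 39.3 FPKM in the C26 muscles and at 1.34, 2.02 and 1.56 in the controls, with a log2FC of 4.66 ± 0.23 (adjusted p = 0.000822, limma). Mafk and Bach1 had log2FC values of 2.85 ± 0.19 and 1.97 ± 0.22. Nfe2l1, which drives proteasome genes when proteasome activity is short, stood at 109, 107 and 159 FPKM against 93.0, 105 and 73.9. The groups did not overlap, but C26 muscle 2 and control muscle 2 were close, and the log2FC of 0.67 ± 0.27 did not pass the test (adjusted p = 0.0980, limma). Nfe2l2, named here after its values were seen, stood at 32.6, 23.4 and 29.9 FPKM against 18.4, 16.7 and 15, with a log2FC of 0.96 ± 0.20 that was called (adjusted p = 0.0147, limma).

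**Figure D5:**
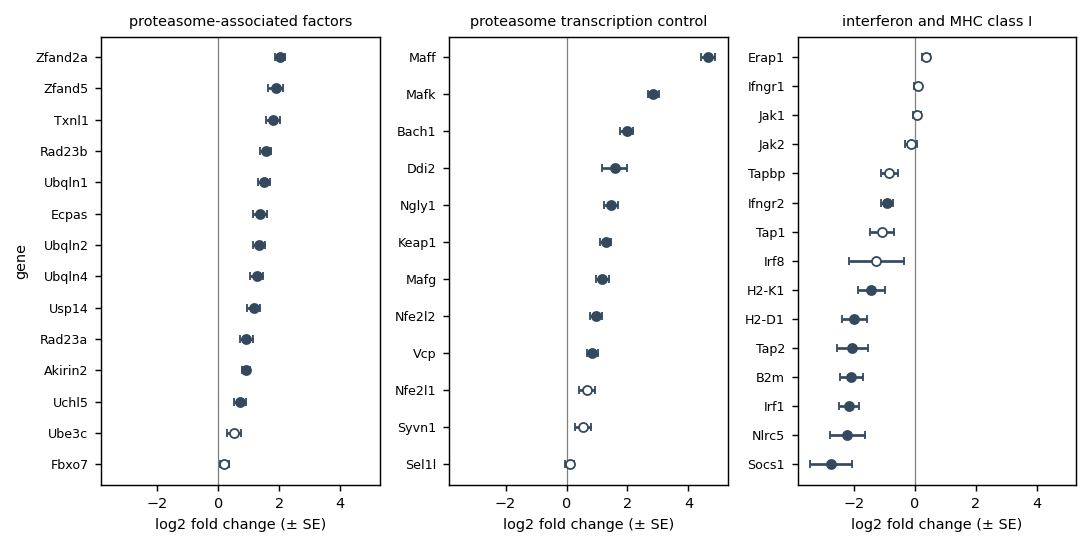
The log2FC (log2(scaled TPM + 1) scale, ± SE, 3 muscles per group) of the proteasome-associated factors, the genes of proteasome transcription control and the interferon and MHC class I genes. Filled points have an adjusted p under 0.05 (limma). The associated factors and the control genes have medians of 1.31 and 1.23, and the interferon and MHC class I genes a median of -1.26.

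Of 15 listed interferon response and MHC class I genes 8 were called lower and 0 higher, against 14.5% and 19.4% of all listed genes. The median log2FC of the 15 was -1.26. Socs1, a feedback inhibitor of cytokine signaling, Nlrc5, the transactivator of MHC class I genes, and the interferon factor Irf1 changed most. Irf1 stood at 2.40, 2.95 and 1.97 FPKM in the C26 muscles and at 20.03, 7.89 and 20.3 in the controls, with a log2FC of -2.16 ± 0.32 (adjusted p = 0.00632, limma). Nlrc5 stood at 0.15, 0.25 and 0.06 FPKM against 5.68, 0.71 and 6.06, with a log2FC of -2.22 ± 0.57. As for Psmb8, Psmb10, Psme1 and Psme2, control muscle 2 was the lowest control in both. The summed level of the 15 genes was 341 to 462 scaled TPM in C26 and 1224, 662 and 1419 in the controls 1 to 3.

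Markers of other cell types were read against the 19.4% of all listed genes called higher and 14.5% called lower. Of 17 immune cell markers 10 were listed, of which 2 (S100a8 and S100a9) were called higher, a share near that of all genes, and 0 were called lower. Their summed level was 73.4 to 496 scaled TPM in C26 and 61.1 to 563 in the controls. The list's largest log2FC was that of the macrophage gene Cd68, at 34.9, 247 and 6.46 FPKM in the C26 muscles and at 4.75, 1.75 and 5.77 in the controls, which did not pass the test (3.40 ± 1.18, adjusted p = 0.0653, limma). Csf1r, Lyz2, Adgre1 and Itgam, also myeloid genes of the list, had log2FC values of -0.78, -0.66, -0.08 and 0.01, none of them called. The myeloid genes S100a8 and S100a9, called higher, had log2FC values of 1.92 and 1.86. The highest summed value was that of control muscle 3, where the B cell gene Cd79b stood at 134 FPKM and the leukocyte gene Ptprc at 40.1, against at most 0.82 and 0.81 in the other muscles. Apart from S100a8 and S100a9, these immune cell genes, 7 in all, were chosen after their values were seen. Without that muscle the log2FC values of Psmb8, Psmb10, Psme1 and Psme2 were -2.39, -1.85, -1.63 and -1.03, and all 4 were still called (adjusted p from 0.0230 to 0.0399, limma). Of 9 adipocyte markers 6 were called lower, with summed levels of 494 to 703 scaled TPM in C26 and 6307, 3570 and 794 in the controls 1 to 3. Of 8 fibroblast and 7 endothelial markers 4 and 2 were called lower, and of 4 Schwann cell markers 0. Of the 15 skeletal muscle markers 1 (Des) was called higher and 4 lower, with a median log2FC of -0.30. The part of these marker levels in the lower immune subunits and PA28 genes was not tested.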

How the data were processed

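FPKM per gene were deposited for 6 muscles. Per the paper's methods, the authors removed adaptor, low-quality and rRNA reads, used bowtie2 and RSEM on single-end 50-base reads, with GRCm38.p5 as the reference, to estimate FPKM. The submitters' processing notes instead name mm9 with HISAT2 2.0.4, Bowtie2 2.2.5 and RSEM 1.2.12, and the conflict cannot be settled here. All 13363 listed genes have FPKM above 0 in every sample. Depth and counting error are unknown, so precision rests on the 3 muscles per group.

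Groups came from the sample labels. Their extraction text names both gastrocnemius and infected THP-1 cells, a human line, while source, tissue and organism labels give mouse muscle. The 15 skeletal muscle markers summed to between 128100 and 274600 scaled TPM in each sample. Symbols were matched by Entrez ID to RefSeq for 13327 genes and not found for 36. FPKM were rescaled to TPM summing to 1000000, divided by TMM factors (trimming 30% of log ratios and 5% by mean level), and log2-transformed with a pseudocount of 1. limma 3.58.1 (R 4.3.3) compared the groups over all genes, with no filter, two-sided, with Benjamini-Hochberg adjustment. Ratios were compared by exact permutation over samples (scipy 1.17.1). The limma fit was tested on simulated data. Levels between genes are compared in FPKM, per length.

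The members and lists were chosen with earlier results of these data known. Values per sample are given for Psmb5 to Psmb10, Psme1 to Psme4, Psmf1, Pomp, up to 4 called members of each role with the largest changes and the 1 with the smallest change, and selectively for up to 3 called genes of each other list, with Nfe2l1, Adrm1, Sem1, Usp14, Nlrc5 and Irf1. Nfe2l2 and the immune cell genes Cd68, Cd79b, Ptprc, Csf1r, Lyz2, Adgre1 and Itgam were named after their values were seen. One gene of the interferon list is not reported here and was left out of that list. The 7 alternatives were quantile normalization, unscaled FPKM, TPM with no TMM factor, a filter at a mean TPM of 1, a pseudocount of 0.1, an intensity trend and a replicate block, with 6 fits leaving out 1 muscle each.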

Additional observations from a re-analysis of the deposited data

How the results depend on the processing

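The counts of core and 19S subunits called higher stayed within 1.5 times the main count in the 7 alternatives and the 6 fits without 1 muscle. With FPKM as deposited 1678 genes were called higher and 2504 lower, against 2589 and 1932 in the main setting, the median of all genes was -0.145 against -0.046, and 28 members were higher and 6 lower. The count of activator and inhibitor genes called higher, 2 in the main setting, was 1 with a pseudocount of 0.1, with a mean TPM of at least 1 and for TPM without TMM, and 0 with FPKM as deposited, quantile normalization and the replicate block. The cause was not tested.

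Without 1 muscle, members called higher numbered 26 to 32 and members called lower 1 to 5, with 2 without C26 replicate 1 and 1 without Control replicate 1. Over all listed genes 1127 to 3311 were called higher and 669 to 2160 lower, with 669 without C26 replicate 1 and 726 without Control replicate 1. The core had 10 to 13 called higher, the 19S particle 16, activators 0 to 2, assembly factors 0 to 1, and immune subunits called lower 0 to 2, with 1 without C26 replicate 1 and 0 without Control replicate 1. The difference in log2 ratio ranged from -4.00 to -2.86 for Psmb8 to Psmb5 and from -3.24 to -2.52 for Psmb10 to Psmb7. The comparison of Psmb9 with Psmb6 was not run, since Psmb9 was not analysed here.

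Log2 fold changes near 0 changed sign. Psmb6 ranged from -0.397 to 0.078 without 1 muscle and was above 0 without C26 replicate 1 (0.078) and Control replicate 1 (0.033). Psme3ip1 was -0.10 with FPKM as deposited and -0.19 with quantile normalization. Psmg2 was 0.006 for TPM without TMM, 0.148 without C26 replicate 3 and 0.03 without Control replicate 3, and ranged from -0.09 to 0.148 without 1 muscle. Psmg4 was -0.18 with FPKM as deposited, -0.34 with quantile normalization, -0.036 without C26 replicate 2, -0.024 without Control replicate 1 and -0.033 without Control replicate 2, and ranged from -0.036 to 0.141 without 1 muscle. Psmc3ip was called lower without C26 replicate 2 (-0.91).

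The labels name replicates by number only and state no pairing. Deviations of same-numbered muscles from their group means correlated at -0.0394, -0.0843 and -0.112, and those of differently numbered muscles at -0.1 to 0.125. With 3 muscles per group these values cannot exclude a pairing. With the replicate block 1839 genes were called higher and 1235 lower, and of the members 28 were higher and 5 lower, with Psmb5, Psme3 and Psmf1 no longer called.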
